A study of Mus musculus with 10 samples.

Results

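The genes described here encode beta subunits of Na,K-ATPase, the sodium pump, and FXYD proteins that associate with it. They are Atp1b1, Atp1b2, Atp1b3, Fxyd3 and Fxyd5, 5 of the 16154 genes in the deposited table, taken by symbol whatever their level. The cells were AT2 cells (alveolar type II, the epithelial cells that make surfactant), sorted from lungs of C57BL/6 mice aged 8 to 10 weeks. One group of 5 libraries is labelled wild type (replicates 2 to 6). The other 5 (replicates 1 to 5) are labelled HOIL-1L -/-; HOIL-1L, encoded by Rbck1, is a subunit of the linear ubiquitin ligase LUBAC. The design text describes the deletion as conditional, a floxed HOIL-1L allele with Cre driven from the surfactant protein C promoter, so the sources differ on whether cells other than AT2 cells carry it. The mouse numbers in the titles form a lower run, called the first (2 wild type and 3 knockout libraries), and a higher one, the second (3 wild type and 2 knockout libraries). All sample titles also carry the letter N, which they do not explain. The title of the series names plasma membrane Na,K-ATPase.

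Na,K-ATPase exchanges intracellular sodium for extracellular potassium and, in the alveolar epithelium, drives the removal of fluid from the airspace. Its alpha subunit carries out the transport, and its beta subunit, a glycoprotein that crosses the membrane once, is needed for the pump to fold, leave the endoplasmic reticulum and reach the plasma membrane. FXYD proteins are small membrane proteins that bind the pump and tune its affinity for ions. RNA levels say nothing of how much pump lies in the membrane.

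Values are normalized read counts per M, that is, the deposited values divided by the mean column total of 7.14 M (M for mega). Depth was roughly estimated at 7.69 to 13.2 M reads per library, with the lowest cluster of values taken as 1 read. What 3 such reads are worth, 0.224 to 0.381 per M, was taken as the limit that a value of 0 allows. Surfactant protein C (Sftpc), the defining AT2 marker, stood at 110470 per M or more in every library. Markers of other lung cells were present too: the 8 AT1 markers summed to 2279 to 2897 per M, the club cell gene Scgb1a1 stood at 3545 to 7554, the 6 ciliated markers summed to 346 to 509, and the endothelial markers (5 of 6 in the table) to 9.83 to 15.6, although Cdh5 among them was listed at 0 in 9 of 10 libraries. Rbck1 stood at 56.1 to 57.8 per M in wild type 3 to 6 and 29.8 to 38.8 in knockout 2 to 5. It stood at 29.7 in the library labelled wild type 2 and 59.3 in that labelled knockout 1, so both go against their labels. In the remaining 8 the knockout level of Rbck1 was 62.9% of wild type. Rbck1 itself chose these 8, so this gap follows in part from the choice. Whether the counted reads lie in the deleted exons is not given in the labels. Results are given with these 2 libraries and without them (8 libraries). By Xist, wild type 2 and knockout 2 and 3 were female and the other libraries male. The wild type libraries among the 8 are therefore all male, and the knockout libraries are not.

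Promoter sequence from RefSeq (GRCm38.p6) was matched to 4 of the 5 genes. The 250 bases before the annotated start are shown for all 4, to set the promoters of the abundant beta subunit genes beside those of the scarce FXYD genes. They lie on the minus strand at chr1:164458356-164458605 (Atp1b1), chr9:96364432-96364681 (the upstream start of Atp1b3), chr7:31076698-31076947 (Fxyd3) and chr7:31042332-31042581 (Fxyd5). Capitals mark GC boxes (GGGCGG) and the core of the site bound by hypoxia-inducible factors (ACGTG or GCGTG), each on either strand; no base below belongs to both.
Atp1b1: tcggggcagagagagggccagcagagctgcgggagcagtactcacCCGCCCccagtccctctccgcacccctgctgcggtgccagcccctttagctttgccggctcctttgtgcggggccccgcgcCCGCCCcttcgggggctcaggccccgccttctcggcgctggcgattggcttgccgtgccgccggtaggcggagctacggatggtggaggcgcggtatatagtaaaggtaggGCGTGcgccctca
Atp1b3: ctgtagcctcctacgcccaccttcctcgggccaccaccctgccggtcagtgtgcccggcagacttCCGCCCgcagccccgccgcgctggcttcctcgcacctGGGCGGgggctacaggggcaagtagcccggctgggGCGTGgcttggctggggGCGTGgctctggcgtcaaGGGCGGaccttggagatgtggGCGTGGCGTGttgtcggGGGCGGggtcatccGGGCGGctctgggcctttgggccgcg
Fxyd3: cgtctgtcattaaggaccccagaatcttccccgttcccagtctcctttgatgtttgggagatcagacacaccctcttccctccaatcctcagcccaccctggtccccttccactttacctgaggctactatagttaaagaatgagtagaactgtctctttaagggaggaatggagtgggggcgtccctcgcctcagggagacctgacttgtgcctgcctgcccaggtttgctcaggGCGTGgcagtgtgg
Fxyd5: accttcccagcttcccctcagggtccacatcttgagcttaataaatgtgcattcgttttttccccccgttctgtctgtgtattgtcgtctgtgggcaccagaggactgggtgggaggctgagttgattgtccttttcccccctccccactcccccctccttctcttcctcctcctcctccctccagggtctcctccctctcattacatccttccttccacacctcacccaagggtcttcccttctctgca

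Both beta subunit promoters were rich in G and C, at 70.4% for Atp1b1 and 73.6% for Atp1b3, and each held 24 CpG dinucleotides. The FXYD promoters held 55.2% (Fxyd3) and 55.6% (Fxyd5) G and C, with 5 and 3 CpG dinucleotides. Over 32851 promoters of the same length the medians were 52.4% and 6. The GC box was found at 2 places in the Atp1b1 promoter, at 5 in that of Atp1b3, and at 0 in those of Fxyd3 and Fxyd5. Among the other FXYD genes described below, the promoter of Fxyd4 held 1 and those of Fxyd1 and Fxyd6 held 0. Of all promoters, 32.7% held at least 1 and 4.09% at least 4. The hypoxia-inducible factor core was found at 4 places in the Atp1b3 promoter and at 1 each in those of Atp1b1 and Fxyd3, and at 0 in that of Fxyd5. A second annotated start of Atp1b3, with its window at chr9:96363716-96363965, had 76.8% G and C, 35 CpG dinucleotides, 0 GC boxes and 2 core matches. Those 2 matches overlap and are the strands of 1 stretch, CACGTG. The counts for this gene therefore depend on the start taken. The core was present in 38.6% of all promoters, so a match by itself is common. These matches describe letters and not sites of binding.

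The levels of the 5 genes covered more than 4 orders of magnitude per exon length, and their order was the same by union exon length and by longest transcript. Atp1b1 (chromosome 1, 164437109 to 164458355, ENSMUSG00000026576), the beta-1 subunit, stood at 407 ± 36.95 per M per kb (SD, n = 10 libraries). Atp1b3 (chromosome 9, 96332655 to 96364442, ENSMUSG00000032412), the beta-3 subunit, followed at 55.2 ± 4.64. The mean of Atp1b1 was thus 7.37 times that of Atp1b3, with the same direction in 10 of 10 libraries. Fxyd3 (chromosome 7, 31068172 to 31076704, ENSMUSG00000057092), known as Mat-8 from mammary tumours, stood at 0.556 ± 0.176 per M per kb, and the mean of Atp1b3 was 99.3 times as high. Fxyd5 (chromosome 7, 31032722 to 31042481, ENSMUSG00000009687), also called dysadherin, stood at 0.132 ± 0.118. Atp1b2 (chromosome 11, 69599736 to 69605942, ENSMUSG00000041329), the beta-2 subunit best known from glia, stood at 0.0248 ± 0.0249.

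Each neighbouring pair in this order passed the test over the libraries (exact sign-flip permutation test over 10 libraries, two-sided, on log2(value + 0.5) per exon length, adjusted over 4 pairs). The order was itself taken from these libraries, so the test describes how regular it was among them. The adjusted p was 0.00391 for Atp1b1 against Atp1b3 and for Atp1b3 against Fxyd3. It was 0.00521 for Fxyd3 against Fxyd5 and 0.0195 for Fxyd5 against Atp1b2, where Fxyd5 was the higher in 8 of 10 libraries. For that last pair the mean log2 ratio, 0.65, was smaller than its SD of 0.76, and both genes lay at or near the limit of detection. With 5 wild type libraries alone the exact test cannot go below 0.0625.

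Of 3 other FXYD genes compared, Fxyd6, a pump regulator best known from brain and inner ear, was the highest, at 1.49 ± 0.519 per M per kb (chromosome 9, 45370185 to 45396159). Its mean lay above that of Fxyd3. Fxyd4, known from kidney, stood at 0.253 ± 0.239, and Fxyd1 (phospholemman, known from heart and muscle) at 0.0167 ± 0.0270, with 7 of 10 libraries listed at 0. Atp1b1 and Atp1b3, but not the third beta subunit gene Atp1b2, were therefore the abundant RNAs among those described. No FXYD RNA described here came within 10-fold of Atp1b3.

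**Figure D1:**
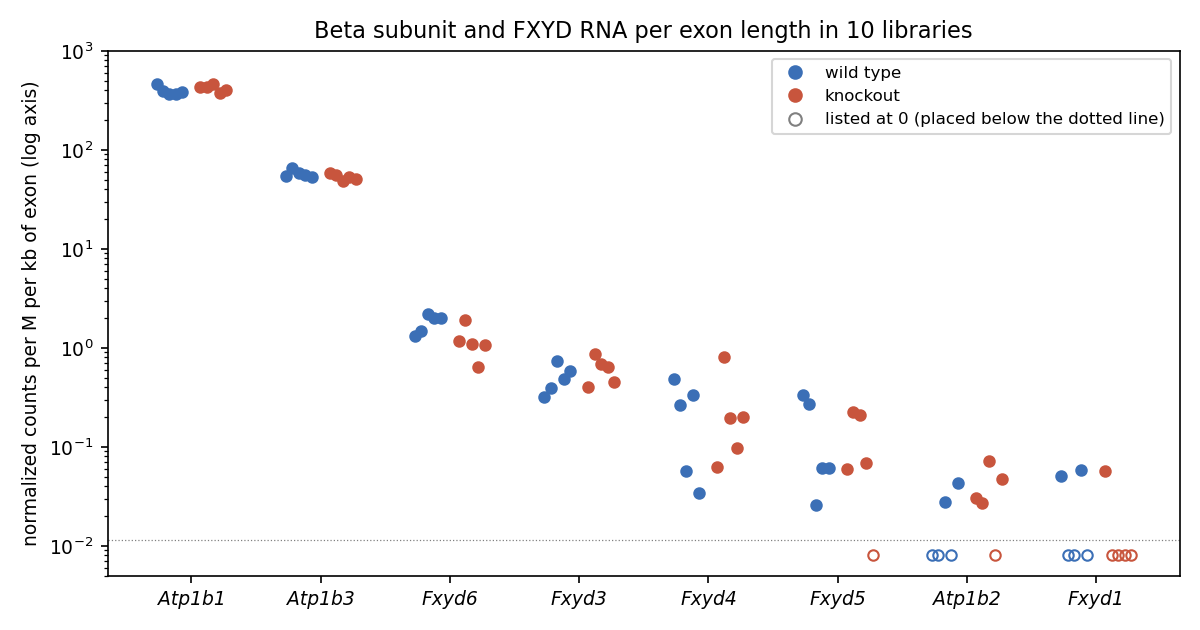
Level of each beta subunit and FXYD gene in 10 libraries, as normalized counts per M per kb of union exon length on a log axis; blue points are wild type, red points knockout, and open points below the dotted line are libraries listed at 0. Atp1b1 (mean 407) lies above Atp1b3 (55.2), and Fxyd6 (1.49) and Fxyd3 (0.556) above Fxyd5, Atp1b2 and Fxyd1.

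Atp1b2 and Fxyd5 were at or near the limit of detection. Atp1b2 was listed at 0 in wild type 2, 3 and 5 and in knockout 4, where a count of 0 allows up to 0.264 to 0.381 per M. In the other six libraries it stood at 0.110 to 0.293 per M, which is about 1 to 3.64 reads, and it exceeded the worth of 3 reads in 1 library (knockout 3). No fold change between the genotypes is given for it. Fxyd5 reached 1 per M in 2 libraries and was listed at 0 in knockout 5, so that neither gene passed the filter of at least 1 per M in at least 5 libraries. The other 3, Atp1b1, Atp1b3 and Fxyd3, passed it in every library.

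The comparison of knockout with wild type asked whether loss of HOIL-1L moved the RNA of these pump genes. Of the 3 tested, 0 passed (limma, adjusted p under 0.05), as did 0% of the 12946 genes in the fit. Before adjustment 1227 genes (9.48%) had p under 0.05, with 0 of these 3 among them. The share called among them is therefore that of all genes.

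Atp1b1 stood at 1406, 1219, 1117, 1126 and 1179 per M in wild type 2 to 6. In knockout 1 to 5 it stood at 1332, 1327, 1431, 1160 and 1240 per M. The groups overlapped, with the library labelled wild type 2 above 4 of the 5 knockout libraries. The log2 fold change was 0.10 ± 0.08 (SE), with a 95% interval from -0.07 to 0.27 (limma adjusted p = 0.702). The interval runs from 0.954-fold to 1.21-fold and so leaves out a change of Atp1b1 RNA by 1.5-fold either way. In 8 libraries the log2 fold change was 0.15 ± 0.08 (limma adjusted p = 0.433), against a background of 0.402% of genes called.

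Atp1b3 stood at 130, 155, 138, 134 and 127 per M in wild type 2 to 6. In knockout 1 to 5 it stood at 139.7, 134, 114, 128 and 120 per M. Its highest library was wild type 3 and its lowest knockout 3, but the groups overlapped. The log2 fold change was -0.10 ± 0.07 (SE), with a 95% interval from -0.26 to 0.05 (limma adjusted p = 0.669), and -0.16 ± 0.08 in 8 libraries (limma adjusted p = 0.414). This interval, too, leaves out a change by 1.5-fold.

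Fxyd3 stood at 1.54, 1.91, 3.57, 2.36 and 2.84 per M in wild type 2 to 6. In knockout 1 to 5 it stood at 1.93, 4.21, 3.35, 3.09 and 2.1702 per M, about 14.1 to 41.7 reads per library over all 10. The groups overlapped over most of their range. The log2 fold change was 0.23 ± 0.23 (SE; limma adjusted p = 0.784), with an interval from 0.831-fold to 1.65-fold, which leaves out a fall by 1.5-fold but not a rise by 1.5-fold. In the second run alone the value was -0.13 ± 0.29. Of the exon bases of Fxyd3, 42.5% also belong to exons of Lgi4 on the opposite strand, and for Atp1b1 18.7% belong to those of Nme7. Whether the counting used strand is not given in the sources used here, so reads of these partners cannot be told apart; Lgi4 stood at 0.510 to 2.35 per M and Nme7 at 150.9 to 186.5.

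**Figure D2:**
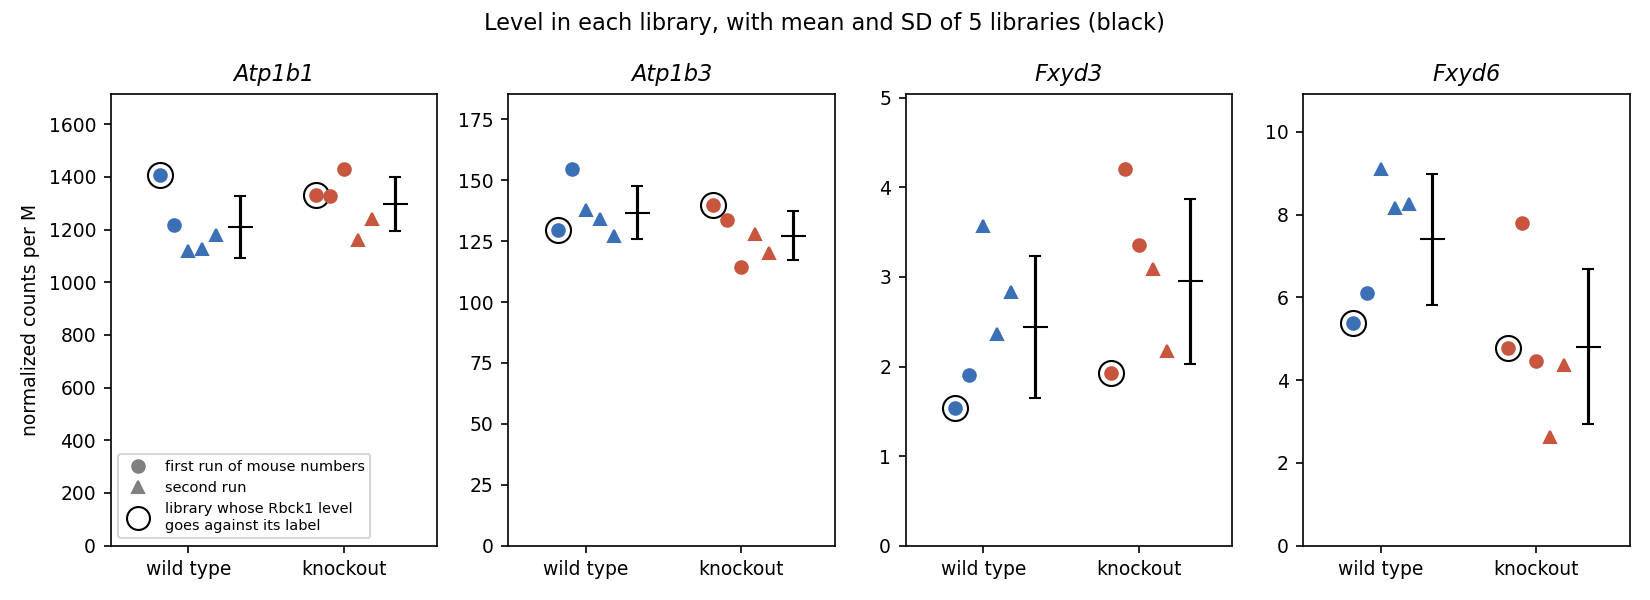
Normalized counts per M of Atp1b1, Atp1b3, Fxyd3 and Fxyd6 in each library, by genotype; circles are the first run of mouse numbers, triangles the second, ringed points the libraries labelled wild type 2 and knockout 1, and black bars the mean ± SD (n = 5). The genotypes overlap in every panel. The triangles of Fxyd6 stand at 8.16 to 9.11 in 3 wild type libraries and at 2.64 and 4.36 in 2 knockout libraries.

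The genotype effect was then set side by side in the 2 runs. For Atp1b1 the log2 fold change was 0.06 ± 0.10 (SE) in the first and 0.07 ± 0.10 in the second, and for Atp1b3 -0.14 ± 0.11 and -0.10 ± 0.10. For Fxyd3 it was 0.67 ± 0.33 in the first, where wild type lay at 1.54 and 1.91 per M and knockout at 1.93 to 4.21. None of these passed within a run (limma adjusted p 0.563 to 0.918), where 0% of all genes were called in the first run and 0.317% in the second. The difference of the effects between runs was -0.80 ± 0.44 for Fxyd3 (limma adjusted p = 0.881), and 0.0154% of all genes were called for that difference. It was 0.01 ± 0.14 for Atp1b1 and 0.04 ± 0.15 for Atp1b3, with intervals that included 0. Both doubted libraries belong to the first run, and without them the difference was -0.10 ± 0.15 for Atp1b1, 0.22 ± 0.16 for Atp1b3 and -0.95 ± 0.46 for Fxyd3, again with intervals that included 0.

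Fxyd6 had a larger estimate. It stood at 5.37, 6.11, 9.11, 8.16 and 8.27 per M in wild type 2 to 6. In knockout 1 to 5 it stood at 4.77, 7.81, 4.45, 2.64 and 4.36 per M. Over all libraries the log2 fold change was -0.62 ± 0.22 (SE; limma adjusted p = 0.384), and in 8 libraries -0.74 ± 0.23 (limma adjusted p = 0.205). In the second run, with 3 wild type against 2 knockout libraries, the log2 fold change was -1.20 ± 0.23 and passed (limma adjusted p = 0.0389). Of all genes, 0.317% were called there. In the first run it was -0.05 ± 0.25 (limma adjusted p = 0.964), with knockout 2 above both wild type libraries. The difference between runs did not pass (-1.15 ± 0.35, limma adjusted p = 0.651).

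Summed markers of other cell types in the second run are set beside these values. Of the ciliated, club, fibroblast and endothelial markers tested there, 0 passed (smallest limma adjusted p 0.293, 0.296, 0.454 and 0.563). The summed ciliated cell markers, 6 of 6 in the table, stood at 483 to 509 per M in its wild type and 400 and 446 in its knockout libraries. The 5 club and secretory markers stood at 5764 to 9384 and at 4975 and 5549 per M, and the fibroblast and smooth muscle markers (5 of 6 in the table) at 4.97 to 7.92 and at 2.87 and 5.31. The ciliated and club sums did not overlap between the genotypes there, and the fibroblast sums did. With 3 against 2 libraries an exact test cannot go below 0.1, so overlap or its absence decides nothing. In the first run the club sums parted the other way, at 4723 and 5030 per M in wild type and 7274 to 9321 in knockout. The ciliated and endothelial sums overlapped in the first run. The AT1 sums of the second run overlapped, at 2288 to 2624 and at 2499 and 2551 per M (0 markers passed, smallest limma adjusted p 0.206). The part of these cell types in the Fxyd6 values was not tested. In a sorted bulk sample, fewer cells of a type and less RNA per cell cannot be told apart.

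**Figure D3:**
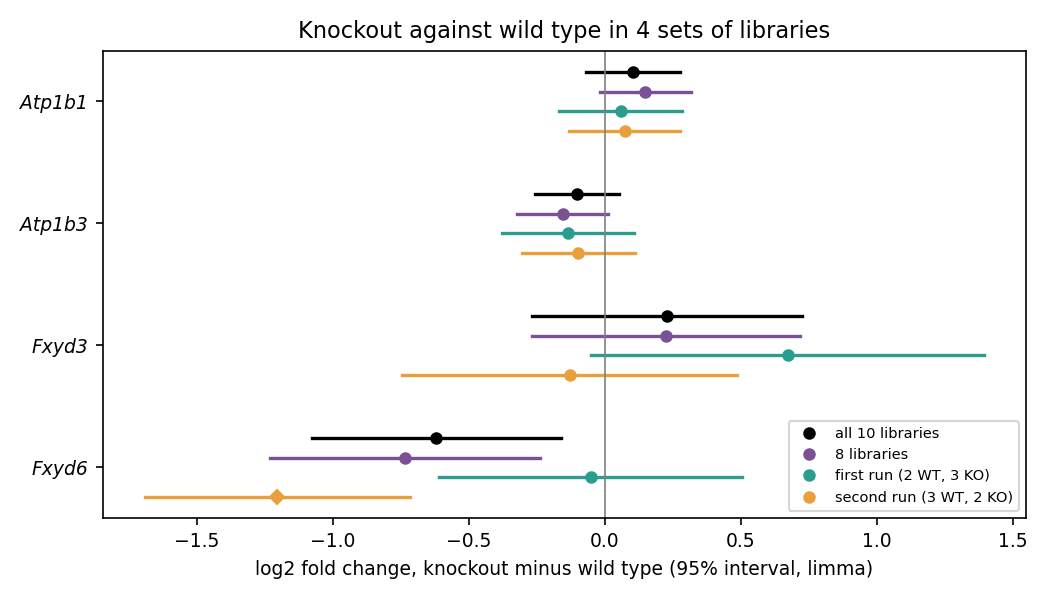
Log2 fold change of knockout against wild type with its 95% interval (limma) for Atp1b1, Atp1b3, Fxyd3 and Fxyd6 in all 10 libraries, in 8 libraries and in each run; the diamond marks an adjusted p under 0.05. All intervals of Atp1b1 and Atp1b3 include 0, and the interval of Fxyd6 in the second run (-1.69 to -0.72) lies below it.

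The balance of beta-1 and beta-3 within a library was also compared, because a ratio does not depend on the scaling of that library. Per exon length, Atp1b1 made up 89.4%, 85.9%, 86.3%, 86.7% and 87.8% of the measured beta subunit RNA in wild type 2 to 6. In knockout 1 to 5 it made up 88.1%, 88.5%, 90.6%, 87.6% and 88.9%. The means were 87.2% ± 1.39 and 88.7% ± 1.17 (SD, n = 5 each), a difference of 1.51 percentage points (two-sided exact permutation p = 0.111, where 0.00794 is the least that can be reached). Without both doubted libraries wild type averaged 86.7% ± 0.807 and knockout 88.9% ± 1.29 (SD, n = 4 each; exact permutation p = 0.0571, least 0.0286). Leaving out only the library labelled wild type 2, the highest of its group, gave 2.05 percentage points (exact permutation p = 0.0238). That set and the 8 libraries hold no female wild type library but keep the female knockout 2 and 3. Sex was not part of this test. With any other single library left out the exact permutation p lay between 0.0794 and 0.214. Within the runs the differences were 1.42 and 1.29 percentage points, where the exact test cannot go below 0.1.

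The runs of mouse numbers were also compared, with genotype in the model, a comparison added after the values had been seen. Over all genes 0.626% were called, and among the 3 genes tested 0 were. Atp1b1 stood at 1343 ± 82.9 per M in the first run and 1165 ± 49.0 in the second (SD, n = 5 each), a log2 difference of -0.19 ± 0.07 (SE; limma adjusted p = 0.185). The 3 libraries that were female by Xist, all of the first run, stood at 1327 to 1431 per M and the 7 male libraries at 1117 to 1332. With sex in the model the difference between runs was -0.13 ± 0.08. Atp1b3, at 134 ± 14.7 and 129 ± 6.70 per M, had a log2 difference of -0.07 ± 0.07 (limma adjusted p = 0.661), and Fxyd3 one of 0.21 ± 0.24 (limma adjusted p = 0.71).

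The runs also parted in Fxyd5. It stood at 1.41, 1.15, 0.249, 0.940 and 0.877 per M in wild type 2 and 3 and knockout 1 to 3. In wild type 4 to 6 and knockout 4 and 5 it stood at 0.109, 0.256, 0.257, 0.290 and 0 per M. Knockout 1 was the only library of the first run that lay among those of the second. The mean difference was -1.02 on the log2(value + 0.5) scale (exact permutation test over 5 against 5 libraries, two-sided, p = 0.0317), and -1.14 in 8 libraries (exact permutation p = 0.0179, the smallest possible there). This p is for 1 gene picked after its values were seen; in a limma fit over all genes with no filter on low values the log2 difference was -1.10 ± 0.22 (SE; adjusted p = 0.124). The 3 female libraries, all in the first run, stood at 0.877 to 1.41 per M and the 7 male ones at 0 to 1.15. By genotype, wild type averaged 0.637 ± 0.598 per M and knockout 0.471 ± 0.415 (SD, n = 5 each; exact permutation p = 0.643). In 8 libraries the order of the means turned, wild type at 0.442 ± 0.475 and knockout at 0.527 ± 0.457 per M (SD, n = 4 each), so no direction by genotype is given.

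Fxyd5 RNA is known from white blood cells as well as from epithelia, and some leukocyte genes also had their highest values in the first run. Ptprc (CD45, the pan-leukocyte antigen) stood at 0.377 to 2.61 per M in the first run and 0.109 to 0.281 in the second. The macrophage genes Adgre1 (F4/80) and Marco stood at 0.463 to 1.06 and 0.125 to 1.25 per M in the first run, and at 0 to 0.293 and 0 to 0.205 in the second. Of the 8 leukocyte markers 6 were in the table, and their summed level was 10.9 to 18.6 per M in the first run and 13.0 to 15.0 in the second, most of it from Csf1r, which did not follow this pattern (9.67 to 16.5 and 12.3 to 14.3). The T cell gene Cd3e was listed at 0 in 6 of 10 libraries. The part of these cells in the Fxyd5 values was not tested.

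**Figure D4:**
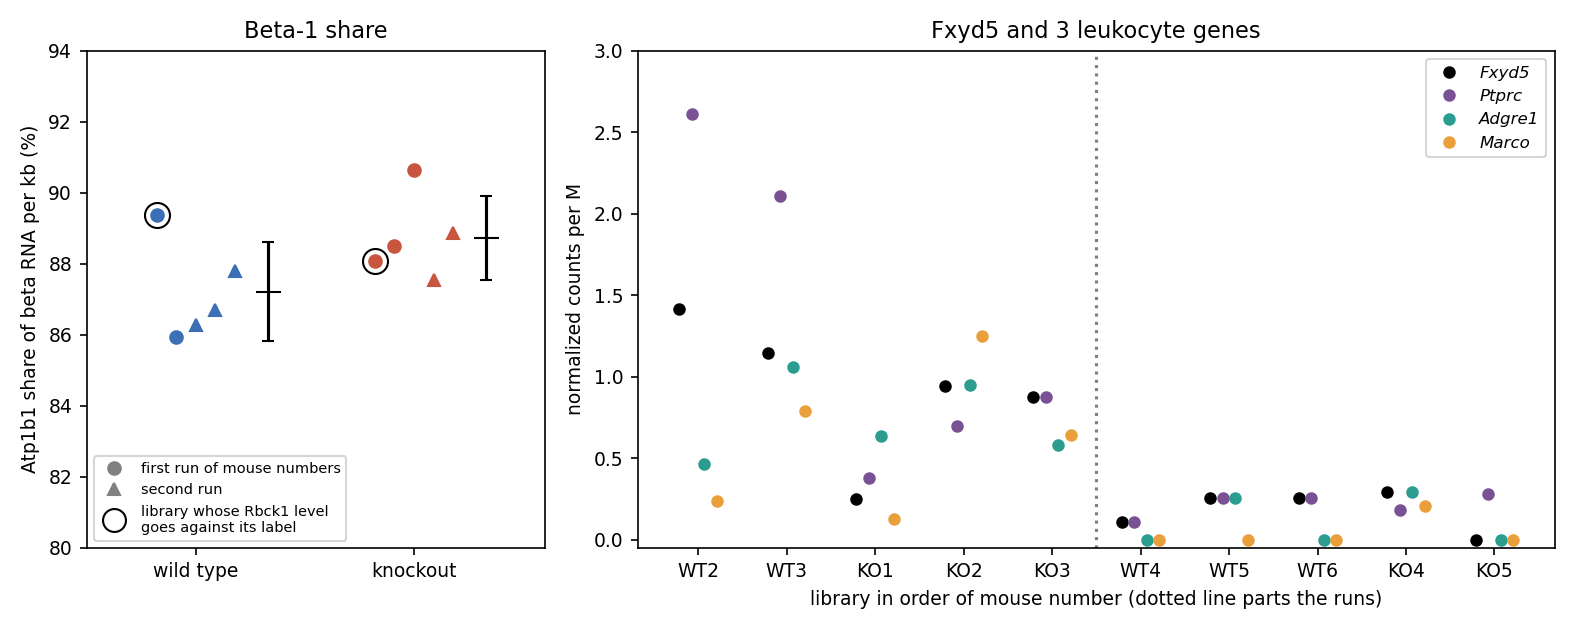
Left, Atp1b1 as a percentage of beta subunit RNA per exon length in each library (axis from 80 to 94), with mean ± SD in black and marks as in the plot of levels by library. Right, normalized counts per M of Fxyd5 and of the leukocyte genes Ptprc, Adgre1 and Marco in each library (WT, wild type; KO, knockout); libraries left of the dotted line belong to the first run, where Fxyd5 reaches 1.41, and those to the right to the second, where it stays at or below 0.290.

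Over the 10 libraries no correlation between the pump genes was found, and 10 libraries are too few to exclude a moderate one. Pearson's r between Atp1b1 and Atp1b3 was -0.32 (permutation p = 0.367) and Spearman's rho -0.31 (permutation p = 0.385), and without the 2 libraries farthest from the median of Atp1b1 r was 0.10. Among 6 pairs of Atp1b1, Atp1b3, Fxyd3 and Fxyd6 the smallest adjusted permutation p was 0.6 for r and 0.512 for rho. Within a run there are 5 libraries, too few for a correlation.

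The genes whose level across the 10 libraries was most like that of each pump gene were ranked among 8486 genes whose mean reached 10 per M, and are given as a description. For Atp1b1 those reported here are Umad1 (r = 0.93, rho = 0.93), St3gal6, a sialyltransferase (r = 0.93, rho = 0.88), and Ttc17 (r = 0.92, rho = 0.94). For Atp1b3 they are Tmem30a, the accessory subunit of phospholipid flippases (r = 0.94, rho = 0.98), Acadm, a fatty acid dehydrogenase of mitochondria (r = 0.90, rho = 0.92), and the sorting nexin Snx7 (r = 0.90, rho = 0.94). Without the 2 farthest libraries r was 0.94 for Tmem30a and 0.78 for Acadm. For Fxyd3 they are Gne, an enzyme of sialic acid synthesis (r = 0.92), Pbld2 (r = 0.89) and the histone methyltransferase Ezh1 (r = 0.87), and for Fxyd6 Tusc2 (r = 0.94), Pwp2 (r = 0.92) and annexin A1, Anxa1 (r = 0.91). The libraries share depth and run in all of these.

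Genes around the pump were followed in 4 lists, with 0 members called in either direction in each, in all 10 and in 8 libraries. The traffic list (20 of 20 tested) holds the clathrin adaptor AP2, clathrin, chaperones and ubiquitin ligases that act on membrane proteins. It had 11 members above 0 and a median log2 fold change of 0.00, beside 0.01 over all genes, of which 51.3% lay above 0 (50.1% in 8 libraries). Nedd4, a ubiquitin ligase, stood at 0.15 ± 0.07 (SE; limma adjusted p = 0.51), the clathrin light chain Cltb at -0.16 ± 0.07 and Ap2s1, the small AP2 subunit, at -0.16 ± 0.08. The AP2 subunits Ap2a1, Ap2b1 and Ap2m1, which capture the pump for endocytosis, stood at 0.02, 0.01 and 0.00.

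The list of kinases, phosphatase subunits and hormone receptors that regulate the pump (20 of 20 tested) had 14 members above 0 and a median of 0.08, to be read against the same 51.3% and 0.01, as are the lists after it. Igf1r stood at 0.40 ± 0.17 (limma adjusted p = 0.484), Mapk8 (JNK1) at 0.23 ± 0.13 and Prkaa1, the AMPK alpha-1 subunit, at 0.14 ± 0.09. Sgk1, a kinase induced by corticosteroids, had a wild type mean of 6.67 ± 2.82 per M and a knockout mean of 7.36 ± 1.91 (SD, n = 5 each). Of the routes by which sodium enters and potassium leaves the epithelium, 16 of 20 were tested, 13 lay above 0 and the median was 0.12 (0.23 in 8 libraries). The potassium-chloride cotransporter Slc12a7 stood at 0.29 ± 0.09 (limma adjusted p = 0.357), the chloride channel Cftr at 0.34 ± 0.15 (0.55 ± 0.12 in 8 libraries, limma adjusted p = 0.0512) and the potassium channel Kcnj15 at 0.20 ± 0.09. Of other P-type pumps, 14 of 17 were tested, 11 lay above 0 and the median was 0.13. The copper pumps Atp7b and Atp7a stood at 0.26 ± 0.08 (limma adjusted p = 0.357) and 0.25 ± 0.12, and the flippase Atp11a at 0.16 ± 0.08. No tested list member and no tested beta subunit passed the adjusted threshold in these 2 sets of libraries.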

How the data were processed

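RNA of sorted AT2 cells was sequenced from polyA libraries (NextSeq), as stated per the labels' protocols. The authors deposited 1 table of normalized counts, a non-negative signal whose column totals are nearly even; bcl2fastq 2.17, edgeR 3.14.0 and the build mm10 are listed in the submitters' processing notes. For aligner, annotation and strand setting: not given in the sources used here. In each library the median of the lowest cluster of values above 0 was taken as the worth of 1 read. Of low values, 23.6% to 48.4% were whole multiples of this step within 0.1. Evenly spread values would also give some such multiples. Whole reads could therefore not be recovered, and no count test was run. Depths and read numbers given here are rough estimates from this step.

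All values were scaled by 1 factor, the mean column total (7.14 M). The 12946 genes that reached 1 per M in 5 or more libraries were tested with limma-trend (limma 3.58.1, R 4.3.3) on log2(value + 0.5), two-sided, with Benjamini-Hochberg adjustment over all genes and a threshold of 0.05; this scale understates changes of low genes. Symbols, coordinates and exon lengths come from GENCODE M21 (GRCm38). Shares, run differences of Fxyd5 and levels were tested by exact permutation (scipy 1.17.1). Each title has its own mouse number, so libraries were taken as separate mice. Named genes are the members, Rbck1, the 3 genes most alike to each tested gene and the 3 members of each list with the smallest p; Sgk1, Ap2a1, Ap2b1 and Ap2m1 were added after their values were seen. Members and lists were chosen with earlier results of these data known. Some genes that fall under these rules, including other genes of the pump, are not reported here. The tests were tested on simulated data.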

Additional observations from a re-analysis of the deposited data

Results flagged for a closer look

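Rbck1 in the library labelled wild type 2 stood at 29.7 per M, with a gap to the next library of 0.940 of the range of its group; a gap above 0.71 of the range, which chance gives in about 1 of 20 groups, was looked for in 16 groups and found in 1. No beta subunit or FXYD value was set apart from its group in this way.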

How the results depend on the processing

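Among those of the 5 genes that had a fit, the count called was 0 under all alternatives run. These were a pseudocount of 0.1 or 2, a filter left out or raised to 5 per M (where Fxyd3 gave no value), equal totals and median-ratio factors. Further alternatives were run or sex as a covariate, array weights, a replicate block, 8 libraries, each run alone, and each library left out. Atp1b2 and Fxyd5 had a fit only with the filter left out. The estimate of Atp1b1 stayed above 0 (0.06 to 0.16) and that of Atp1b3 below it (-0.16 to -0.06). Over all genes the count was 261 with the replicate block, 1 with run as a covariate, 52 in 8 libraries, 41 in the second run alone, and 0 to 4 with 1 library left out (4 without knockout 1); the cause was not tested. With the replicate block Atp1b1 stood at 0.09, Atp1b3 at -0.16 and Fxyd3 at 0.40. Deviations of same-numbered libraries correlated at 0.31, 0.03, 0.10 and 0.08 for numbers 2 to 5, and wild type 3 and 5 correlated best with knockout 1 and 4, so the numbers were not taken as pairs.

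Fxyd3 reversed to -0.13 in the second run alone. The run difference of the genotype effect of Atp1b1 reversed to -0.10 in 8 libraries, the run difference of Fxyd3 to -0.053 in 8 libraries, and that of Fxyd6 to 0.063 with sex as a covariate and to between -0.21 and 0.21 with 1 library left out; none of these passed. With sex as a covariate the run difference of Atp1b3 was -0.20 (limma adjusted p = 0.364). The difference in beta-1 share lay between 1.03 and 2.05 percentage points with 1 library left out, 1.24 without lengths. The order of levels had 4 of 4 pairs called, and 0 in wild type alone, where 5 libraries cannot reach the threshold. The Rbck1 difference, -0.34 as labelled (exact permutation p = 0.206), was between -0.52 and -0.24 with 1 library left out. It was -0.67 in 8 libraries, a set chosen by Rbck1 itself. With 1 library left out, the difference of Fxyd5 between the runs lay between -1.23 and -0.89. Depth limits Fxyd3, Fxyd5 and Atp1b2, which rest on at most about 41.7, 13.0 and 3.64 reads per library by the estimated worth of 1 read.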
